A study of Rattus norvegicus with 49 samples.

Results

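The 8 liver genes of the PPAR alpha and fatty acid oxidation system were followed here across furan doses in male and female rats. They are 8 of the 15154 genes that the array named, and were chosen by symbol: Ppara, Cpt1a, Ehhadh, Acot1, Cyp4a1, Pdk4, Acadm and Vnn1. Each was measured by 1 probe, and 8 of 8 passed the filter on dim probes that left 17128 probes for testing.

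PPAR alpha, the product of Ppara, is a nuclear receptor that fatty acids and fibrate drugs activate. It pairs with the retinoid X receptors on DNA and raises the genes that take up, activate and burn fatty acids in mitochondria, peroxisomes and the endoplasmic reticulum. In the liver it carries the response to fasting, and in rodents its lasting activation makes peroxisomes multiply.

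The rats were F344, an inbred Fischer strain, with no transgene, and were 7 to 8 weeks old when dosing began. Furan, a contaminant of heated food, was given in corn oil by gavage on 5 days a week for 90 days at 4 doses, 0.03 mg/kg, 0.12 mg/kg, 0.5 mg/kg and 2 mg/kg, and controls (0 mg/kg) received corn oil alone. The question was which of these genes differed from the controls, from which dose, and in which sex. Liver RNA of each rat was hybridised on a 2-colour array against a universal rat reference RNA, so every value below is a log2 ratio of liver over reference. Such a ratio compares samples for 1 gene and does not rank genes by level. Groups held 5 arrays, except that the males at 0.03 mg/kg held 4, of which 3 were in the fit. The array of male 26 at 0.03 mg/kg had 5.06% of liver spots well above background against 37.9% to 71.1% on the other 48, and was left out. The arrays lay on 8 slides, and slide moved 91.0% of all probes and 8 of 8 of these genes (limma F test), so slide was a term of the fit. Slides 5 and 6 held 10 treated arrays and 0 control arrays. Of 49 columns in the authors' own table of ratios, 39 matched the array of another rat of the same group (r of at least 0.99), 7 matched their own and 3 matched none; rats are numbered here as in the scanner files.

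Hepatocyte markers were present in these livers. All 8 (Alb, Apoa1, Ttr, Tf, Apob, Fgb, Cps1, Serpina1) were well above background in each control and each 2 mg/kg liver. Their mean log2 ratio lay between 5.99 and 7.95 in control males and between 5.80 and 7.33 in males at 2 mg/kg. The fitted difference was below 0 for all 8 in 2 mg/kg males, with a median of -0.42 against -0.02 over all probes, and for 5 of 8 in females (median -0.04). None of them was called at 2 mg/kg, where called means a limma adjusted p of at most 0.05 and a change of at least 1.5-fold. In 2 mg/kg males Alb (-0.51, 1.43-fold; limma adjusted p = 0.00041) and Ttr (-0.50, 1.42-fold; limma adjusted p = 0.00123) were nonetheless lower at adjusted p values under the threshold. Of 4 bile duct markers 3 rose in 2 mg/kg males, with Epcam at 0.92 ± 0.16 (SE) in males and 0.60 ± 0.16 in females, and of 3 erythroid markers 2 fell in males. Of the 6 stellate cell and fibroblast markers 2 rose in males. None of 7 macrophage, 3 endothelial, 2 lymphocyte and 1 adipocyte markers that passed the filter was called at 2 mg/kg, and 0 of 4 skeletal muscle markers passed it. Some markers were called between control sexes. Ttr was higher in males (0.63), while Lyve1 (-1.02), Cd5l (-0.74), Lrat (-0.80) and Slc4a1 (-1.38) were lower. Whole liver cannot tell fewer cells of a type from less RNA per cell, and the part of these marker changes in the results below was not tested.

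Promoters stood in the RefSeq table (GRCr8) for 6 of the 8 genes and not for Cyp4a1 and Vnn1. The 250 bases before the transcript start used in that table are shown for the 4 of these genes with a limma adjusted p of at most 0.05 at 2 mg/kg in males, where Ppara and Acot1 were higher than in controls and Ehhadh and Acadm lower. For Ppara, and for Cpt1a, which was searched but is not shown, that start lies inside the gene's outer span in the same build. Their windows are thus within the annotated gene. Capitals mark CCAAT, read on either strand as CCAAT or ATTGG.
Ppara, chr7:118712357-118712606, + strand: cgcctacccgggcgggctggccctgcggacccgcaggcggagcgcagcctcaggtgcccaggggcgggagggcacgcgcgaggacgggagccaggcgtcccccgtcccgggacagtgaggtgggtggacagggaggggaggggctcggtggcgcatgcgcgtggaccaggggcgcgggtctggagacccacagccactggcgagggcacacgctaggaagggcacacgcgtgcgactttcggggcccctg
Acot1, chr6:109367024-109367273, + strand: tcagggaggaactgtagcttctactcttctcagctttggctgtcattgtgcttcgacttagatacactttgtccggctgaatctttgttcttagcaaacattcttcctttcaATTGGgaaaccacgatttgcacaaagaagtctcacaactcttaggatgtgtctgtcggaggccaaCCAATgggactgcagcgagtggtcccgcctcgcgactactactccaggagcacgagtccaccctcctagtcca
Ehhadh, chr11:92746159-92746408, + strand: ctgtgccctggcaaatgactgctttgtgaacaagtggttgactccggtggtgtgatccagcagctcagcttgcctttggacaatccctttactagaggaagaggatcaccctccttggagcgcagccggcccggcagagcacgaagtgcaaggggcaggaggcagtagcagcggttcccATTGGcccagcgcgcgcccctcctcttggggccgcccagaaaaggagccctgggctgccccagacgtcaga
Acadm, chr2:245542865-245543114, - strand: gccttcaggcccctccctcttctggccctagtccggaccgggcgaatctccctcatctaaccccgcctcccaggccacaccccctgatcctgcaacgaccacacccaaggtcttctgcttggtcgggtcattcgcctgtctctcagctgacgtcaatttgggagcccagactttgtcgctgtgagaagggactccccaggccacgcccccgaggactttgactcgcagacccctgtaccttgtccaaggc
The element that PPAR alpha binds is a direct repeat of the half-site AGGTCA with 1 base between the copies. Neither this repeat, nor a looser one of NGGNCA, 1 base and AGGNCA, was found on either strand of the 6 promoters, and neither was a single AGGTCA, which lies inside the full repeat. Of 33469 promoters of the same length, 0.0508% held the full repeat, 0.669% the looser one and 14.1% the half-site. CCAAT was in the windows of Ehhadh, Acot1 and Pdk4 and in 34% of all promoters. These are letters in short windows and not binding sites.

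At 2 mg/kg furan in males the genes did not move one way. The receptor gene Ppara and the thioesterase gene Acot1 rose, while Cyp4a1, the omega-hydroxylase gene long used as a marker of PPAR alpha activity, fell. The oxidation genes Ehhadh and Acadm were lower at adjusted p values under the threshold, but by less than 1.5-fold. Cpt1a, Pdk4 and Vnn1 did not pass the test. With 3 of 8 genes called (2 higher, 1 lower), the background was 5.22% of all probes called, 2.73% higher and 2.49% lower.

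**Figure D1:**
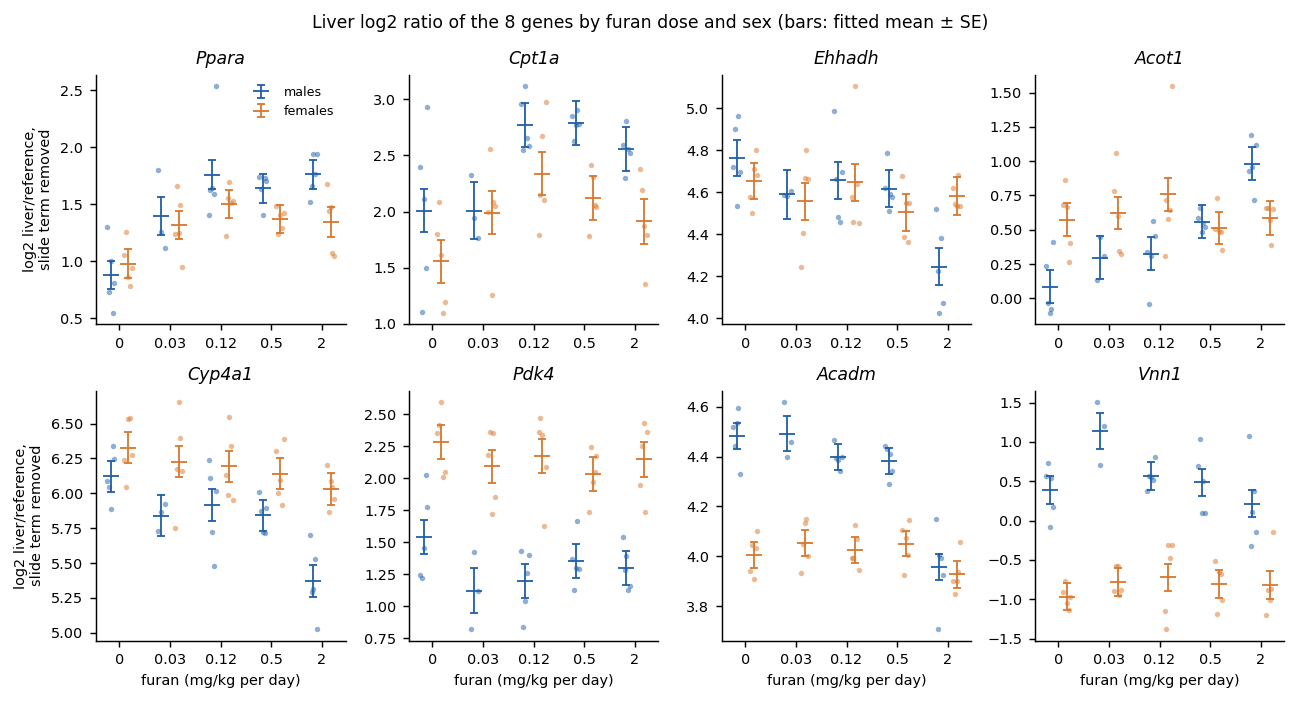
Log2 ratio of liver over reference with the slide term removed (y axis) at each furan dose in mg/kg per day (x axis), with males in blue and females in orange, 1 point per rat and bars for the fitted mean ± SE. Ppara lies at 0.88 in control males and between 1.39 and 1.76 in all treated male groups, while the lowest male means of Cyp4a1, Ehhadh and Acadm stand at 2 mg/kg.

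Ppara, the receptor gene, had log2 ratios of 0.30, 0.91, 1.23, 1.31 and 2.01 in the 5 control males and 1.07, 1.43, 1.70, 2.04 and 2.34 in the 5 males at 2 mg/kg. As measured, the groups overlapped, with 2 treated males above all controls. With the slide term removed, controls lay between 0.55 and 1.30 and treated males between 1.52 and 1.94, with no overlap. Here and below, slide terms come from the same fit as the group means, so such a separation is not separate support for the fitted difference. The 2 mg/kg males on slides 5 and 7 had no control male on their slide. The share of all probes whose groups separate, as measured or with slide removed, was not counted. The difference was 0.89 ± 0.18 (SE; 95% interval 0.52 to 1.25; limma adjusted p = 0.000383), which is 1.85-fold. On each of the 3 slides that held both a control and a 2 mg/kg male, the treated male was higher, by 0.79 to 1.13. Without a slide term the difference was 0.57 and was not called (limma adjusted p = 0.370). With median centring in place of loess it was 0.58, under 1.5-fold, at a limma adjusted p of 0.00148. With neither a slide term nor the dim array left out, 0 of the 8 genes were called at 2 mg/kg.

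Ppara was also higher at 0.12 and 0.5 mg/kg in males. The fitted mean was 0.88 ± 0.13 (SE) in controls, 1.39 ± 0.17 at 0.03, 1.76 ± 0.13 at 0.12 and 1.64 ± 0.13 at 0.5 mg/kg, against 1.76 ± 0.13 at 2 mg/kg. The step was between the controls and 0.12 mg/kg, and the 3 upper doses differed by less than their errors. At 0.12 mg/kg the difference was 0.88 ± 0.18 (limma adjusted p = 0.0111), and Ppara was the 1 gene of 8 called, where 0.309% of all probes were called. At 0.5 mg/kg it was 0.76 ± 0.18 (limma adjusted p = 0.0409), again the 1 gene called, against 0.368% of probes. As measured, 2 of 5 treated males at 0.12 mg/kg and 1 of 5 at 0.5 mg/kg lay above all 5 controls. After slide removal, with slide terms from the same fit, all 5 did at both doses. The treated male was higher on 4 of 4 slides at 0.12 mg/kg and 2 of 2 at 0.5 mg/kg. Neither call was made without a slide term or with median centring. The call at 0.12 mg/kg was lost without control male 5, and that at 0.5 mg/kg did not survive the removal of any 1 of 8 arrays, out of 10 tried. Over the mean of the 4 doses the difference in males was 0.76 ± 0.15 (limma adjusted p = 0.00428), the 1 call of 8, against 0.461% of probes; it was lost without control male 5. The dose comparisons share the same 5 controls, so they do not stand apart from each other.

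At 0.03 mg/kg the Ppara difference in males was 0.52 ± 0.21 over 3 treated rats and was not called. No probe was called by limma at that dose (0% of 17128), with 707 at an unadjusted p under 0.05. Ppara was above background on 4 of 5 control males and on 5 of 5 at 2 mg/kg.

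Acot1 codes for a cytosolic thioesterase that splits long-chain acyl-CoA into free fatty acid and coenzyme A. Its log2 ratios were 0.15, 0.22, 0.23, 0.31 and 0.37 in control males and 0.52, 0.67, 0.87, 1.19 and 1.64 at 2 mg/kg. All treated males were above all controls as measured. With slide removed, controls lay between -0.11 and 0.41 and treated males between 0.72 and 1.19. The difference was 0.90 ± 0.17 (SE; 95% interval 0.55 to 1.24; limma adjusted p = 0.000188), or 1.86-fold, and 0.71 to 1.27 within the 3 shared slides.

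The Acot1 signal was dim: 2 of 5 control males and 4 of 5 at 2 mg/kg were well above background. Its probe passed the filter on dim probes only through the 2 mg/kg males and the control females (4 of 5). These were the groups with its highest means as measured. The scanner software's processed ratio, which differs in background correction and normalisation, gave 2.62 for the same difference. Without a slide term it was 0.72 and not called (limma adjusted p = 0.0568). At lower doses the male differences were 0.21, 0.24 and 0.48 at 0.03, 0.12 and 0.5 mg/kg, and none was called.

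Cyp4a1 codes for a microsomal cytochrome P450 that hydroxylates the far end of the fatty acid chain. Control males had log2 ratios of 5.60, 6.16, 6.48, 6.57 and 7.02, and males at 2 mg/kg 4.38, 4.80, 5.01, 5.97 and 6.23. Of the treated males, 3 were below all controls as measured, and 5 of 5 once slide was removed. The difference was -0.75 ± 0.16 (SE; 95% interval -1.07 to -0.43; limma adjusted p = 0.000657), a 1.68-fold fall. Within the 3 shared slides it was -1.22 to -0.34, and without a slide term -1.09 and still called (limma adjusted p = 0.0467). The call was lost with median centring (-0.50) and in the liver channel alone (-0.51), both under 1.5-fold, and in the authors' table with no slide term (-0.94; limma adjusted p = 0.184).

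Ehhadh codes for the bifunctional enzyme of peroxisomal beta-oxidation. The log2 ratios were 4.07, 4.84, 5.06, 5.30 and 5.63 in control males and 3.45, 3.55, 4.05, 4.89 and 4.92 at 2 mg/kg. Of the treated males, 3 lay below all controls as measured, and 5 of 5 with slide removed. The difference of -0.52 ± 0.12 had a limma adjusted p of 0.00218, but its size of 1.43-fold was under the limit and it was not called. Within the 3 shared slides it was -0.74 to -0.38. Median centring brought it to -0.25 (limma adjusted p = 0.0914).

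Acadm codes for the mitochondrial dehydrogenase of medium-chain acyl-CoA. The log2 ratios were 4.06, 4.64, 4.65, 4.84 and 4.91 in control males and 3.62, 3.65, 4.03, 4.07 and 4.35 at 2 mg/kg. Of the treated males, 3 lay below all controls as measured, and 5 of 5 with slide removed. The difference was -0.53 ± 0.07 (95% interval -0.68 to -0.38; limma adjusted p = 4.75e-06), with the smallest SE of the 8 genes, but was 1.44-fold and so not called. Without a slide term it was -0.68 and called (limma adjusted p = 0.0149). At 0.03, 0.12 and 0.5 mg/kg the male differences were 0.01, -0.09 and -0.10, with 95% intervals that include 0.

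**Figure D2:**
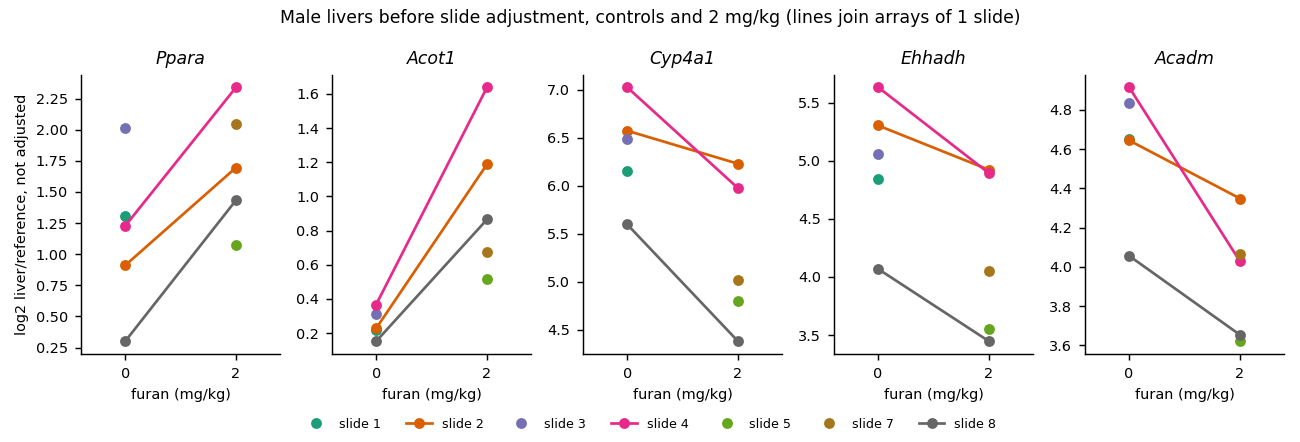
Log2 ratio of liver over reference before any slide adjustment (y axis) in control and 2 mg/kg males (x axis) for 5 genes, with 1 point per rat coloured by slide and lines joining rats of 1 slide. On slides 2, 4 and 8, Ppara and Acot1 go up, and Cyp4a1, Ehhadh and Acadm go down, while the slides differ widely in level.

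Cpt1a codes for the carnitine palmitoyltransferase at the outer mitochondrial membrane, the gate for long-chain fatty acids. In males the log2 differences were 0.00, 0.76, 0.78 and 0.55 from the lowest dose up, with SEs of 0.27 to 0.33, and none was called. At 2 mg/kg the limma adjusted p was 0.146 with a 95% interval of -0.01 to 1.10, and the treated and control values overlapped. Within the shared slides the treated male differed by -0.41 to 1.49, and was higher on 2 of 3. The calls of Cpt1a turned on single controls. Without control male 6, it was called at 0.12 (1.07), 0.5 (1.04) and 2 mg/kg (0.87; limma adjusted p = 0.0174), and over the mean of the doses (0.82). It passed the F test across doses without control male 6 or without control male 4. Median centring also called it at 2 mg/kg (0.75; limma adjusted p = 0.0478).

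Pdk4 codes for the kinase that shuts down pyruvate dehydrogenase when fat is burned in place of glucose. Its male differences ran from -0.42 to -0.19 over the 4 doses, with a limma adjusted p of 0.370 at 2 mg/kg. Vnn1 codes for vanin 1, a pantetheinase known as a sensitive PPAR alpha target. Its male differences ran from 0.75 ± 0.30 in the lowest dose group to -0.17 ± 0.25 in the highest, and none was called. The 2 mg/kg Vnn1 values lay between -0.71 and 1.09 and reached past the control range of 0.16 to 0.75 on both sides.

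Over all doses at once, limma's F test was read by its adjusted p alone (at most 0.05), with no limit on fold. In males Ppara, Ehhadh, Acot1, Cyp4a1 and Acadm passed it (5 of 8), where 18.8% of all probes passed; the largest differences of Ehhadh and Acadm were under 1.5-fold. Cpt1a was at an adjusted p of 0.0625. With no slide term 0 of the 8 passed the F test, against 524 of 17128 probes.

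In females none of the 8 genes was called at any dose, over the mean of the doses or by the F test. The shares of all probes called were 0.0175% at 0.03, 0.0117% at 0.12, 0.0292% at 0.5 and 1.45% at 2 mg/kg, 0.146% over the mean and 3.1% by the F test. At an unadjusted limma p under 0.05, 4153 probes passed at 2 mg/kg.

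Ppara in females had log2 ratios of 1.06, 1.22, 1.44, 1.47 and 1.87 in controls and 0.54, 0.56, 0.58, 1.76 and 1.86 at 2 mg/kg. As measured 3 treated females lay below all controls, and with slide removed 3 lay above them, so the sign changed with the slide term. The fitted differences were 0.34, 0.52, 0.39 and 0.36 from the lowest dose up, with limma adjusted p values of 0.223 to 0.778. On the 2 slides with a control and a 2 mg/kg female, treated females were higher by 0.42 and 0.53.

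Acot1 in females was 0.36, 0.67, 0.71, 1.08 and 1.12 in controls and 0.13, 0.22, 0.39, 0.53 and 0.92 at 2 mg/kg, overlapping values with a fitted difference of 0.01 ± 0.18 (95% interval -0.35 to 0.37). Cyp4a1 differed by -0.29 ± 0.16 (limma adjusted p = 0.271), Acadm by -0.08 ± 0.08 and Ehhadh by -0.07 ± 0.13. Cpt1a was at 0.43, 0.78, 0.57 and 0.36 over the 4 doses, above 0 at each and called at none.

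The difference between the sexes in the response was tested directly. At 2 mg/kg the effect on Acot1 was larger in males than in females by 0.89 ± 0.24 (95% interval 0.41 to 1.36; limma adjusted p = 0.0424), the 1 gene of 8 called, with 1.14% of all probes called. Its probe was dim in both sexes and passed the filter on dim probes only through the 2 mg/kg males and the control females. High values in these groups raise this difference, so the filter favoured it and passing the filter lends the call no support. The probe was well above background on 4 of 5 control females and 2 of 5 females at 2 mg/kg, as on 2 and 4 of the males. Over all liver spots, the share above background had slide medians of 61.1% to 69.0% on slides 1 to 4 and 43.2% to 56.3% on slides 5 to 8. Control females lay mostly on the former slides and 2 mg/kg females mostly on the latter, and the part of slide in these counts was not tested. With single arrays removed in turn, 12 of 20 removals ended this call, at differences of 0.79 to 0.97 over the 20. The interaction of Acadm was -0.45 ± 0.10, lower in males, with a limma adjusted p of 0.0230 and a size under 1.5-fold. The interactions of Ppara (0.52 ± 0.25; limma adjusted p = 0.238), Cyp4a1 (-0.46 ± 0.22; 0.249) and Ehhadh (-0.45 ± 0.17; 0.142) were not called, so a male-only response was not shown for them. Over the mean of the 4 doses 0 of 8 interactions were called by limma, against 0.0175% of probes, with 1608 probes at an unadjusted p under 0.05.

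Control rats already differed by sex in Vnn1 and Pdk4. Vnn1 was at 0.16, 0.26, 0.28, 0.32 and 0.75 in control males and -1.52, -1.19, -1.16, -0.74 and -0.64 in control females, with no overlap. Males were higher by 1.35 ± 0.24 (95% interval 0.86 to 1.84; limma adjusted p = 6.33e-05), or 2.55-fold, and by 0.97 to 1.68 on the 4 slides that held controls of both sexes. Pdk4 ran the other way, at 1.13, 1.75, 1.83, 1.93 and 2.84 in males and 1.79, 2.82, 2.94, 2.95 and 3.07 in females. The Pdk4 groups overlapped, and the fitted difference, males minus females, was -0.74 ± 0.18 (limma adjusted p = 0.00283), or 1.67-fold. On the shared slides the male was lower on 3 of 4. The Pdk4 call was lost without a slide term (-0.82; limma adjusted p = 0.355) and in the liver channel alone (-0.23; limma adjusted p = 0.301). These were 2 of 8 genes called, where 6.58% of all probes were called, 2.92% higher and 3.66% lower in males.

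Acadm was higher in control males by 0.48 ± 0.07 (limma adjusted p = 4.56e-06), and Acot1 was lower by a log2 difference of -0.49 ± 0.16 (limma adjusted p = 0.0293); both were under 1.5-fold. Acadm was thus at a fitted 4.48 in control males and 4.01 in control females, and at 3.96 in males and 3.93 in females at 2 mg/kg. Acot1 was at 0.08 in control males and 0.57 in control females, and at 0.98 and 0.59 at 2 mg/kg. The sign of Cyp4a1 between control sexes changed with the scaling: it was -0.21 here, -0.60 with median centring in place of loess, -1.02 from the liver channel alone, 0.54 with the scanner's ratio and 0.08 in the authors' table with no slide term.

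The rest of the pathway was followed in 9 short lists that hold 94 genes, of which 91 were on the array and 90 passed the filter. In males at 2 mg/kg 11 of the 90 were called, 1 higher and 10 lower, beside 5.22% of all probes. The median log2 difference of the 90 was -0.23, against -0.02 over all probes, and 24 of 90 lay above 0, against 46.4% of probes. The hepatocyte markers had a lower median still in this comparison, and all of them lay below 0, so a fall was not particular to these lists. Median centring turned the balance of all called probes from 52.2% higher to 84.9% higher and moved the median of all probes from -0.02 to 0.09. Ppara, Acot1, Cyp4a1, Ehhadh and Acadm kept their signs under it.

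Fatty acid uptake and activation held 3 falls among 12 genes, in Acsl1 (-0.88 ± 0.12), Slc27a5 (-0.73 ± 0.12) and Acsl5 (-0.62 ± 0.18), which join fatty or bile acids to coenzyme A. Crot, which moves medium-chain acyl groups out of peroxisomes, fell by 0.82 on the log2 scale as 1 of 8 carnitine shuttle genes. Decr1, an auxiliary enzyme for unsaturated fatty acids, fell by 0.59 as 1 of 16 genes of mitochondrial beta-oxidation. Of the 16 peroxisomal beta-oxidation genes 0 were called, with a median of -0.28 and 2 above 0.

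Among 7 omega-hydroxylation genes Cyp4f4 fell by 0.91, while Cyp4a2 and Cyp4a3, the close relatives of Cyp4a1, were at -0.58 ± 0.35 and -0.41 ± 0.19 and were not called. Probes of such close relatives may share signal. None of 6 other acyl-CoA thioesterase genes was called. Of the relatives of Acot1 on the same chromosome, Acot2 was at 0.46 ± 0.15 (limma adjusted p = 0.0202) and Acot3 at 0.53 ± 0.13 (limma adjusted p = 0.00289), both under 1.5-fold, and Acot4 at 0.31 ± 0.27 (limma adjusted p = 0.445). Bdh1, which turns acetoacetate into hydroxybutyrate, fell by 0.61 as 1 of 4 ketone body genes.

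Of 8 receptor and coregulator genes 1 was called, Pparg, the adipose relative of Ppara, at -0.86 ± 0.16 (limma adjusted p = 0.000198). Ppard was at -0.58 ± 0.13 and Rxra, the main liver partner of PPAR alpha, at -0.27 ± 0.13. Among 13 other PPAR alpha targets and fuel-switching genes, Fgf21, the fasting hormone of the liver, rose 2.83-fold (SE 0.46 on the log2 scale; limma adjusted p = 0.0139). G0s2 and Angptl4, inhibitors of fat-splitting lipases, fell by 1.07 and 0.61. The Fgf21 call was lost without control male 2 and without male 87 at 2 mg/kg, and the calls of Acsl5, Decr1 and Bdh1 were each lost in 3 of 10 such fits and that of Angptl4 in 4. Those of Acsl1, Slc27a5, Crot, Cyp4f4, Pparg and G0s2 were called in 10 of 10. With male 26 put back, 5 of the 90 were called.

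**Figure D3:**
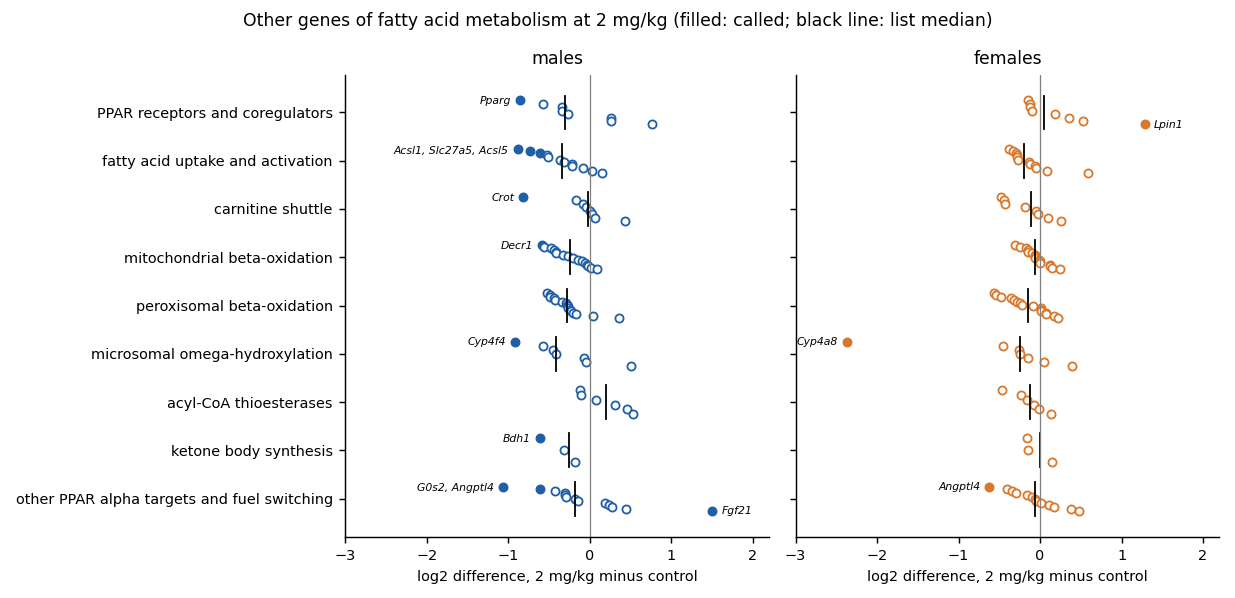
Log2 difference of 2 mg/kg from controls (x axis) for the genes of 9 pathway lists (y axis) in males, left, and females, right, with 1 point per gene reported, filled and named where called, and a black line at the median of all tested genes of each list. In males 10 of 11 called genes lie below 0 with Fgf21 the exception, and in females Lpin1 lies above 0 and Cyp4a8 and Angptl4 below.

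In females at 2 mg/kg 4 of the 90 were called, beside 1.45% of all probes, with a median of -0.10. Lpin1, a phosphatase that also acts as a coactivator of PPAR alpha, rose by 1.28 ± 0.38. Cyp4a8 fell by 2.37 (SE 0.68), although its other probe, not above background in either group, did not show it. Angptl4 fell by 0.62. Leaving out 1 array at a time, the calls of Lpin1 and Cyp4a8 were each lost in 8 of 10 fits, and that of Angptl4 in 9. With male 26 put back, 0 of the 90 were called in females. Lpin1 also rose in males at 0.12 mg/kg (1.61 ± 0.36), and Fgf21 in males at 0.5 mg/kg (1.85 ± 0.46), each the 1 called gene of 90 at that dose. Removing 1 array at a time ended the first call in 5 of 10 fits and the second in 9 of 10.

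Between control sexes 18 of the 90 genes were called, 8 higher and 10 lower in males, beside 6.58% of all probes (2.92% higher and 3.66% lower). Cyp4a2 was higher in males, with the largest fitted difference of the 18 (9.18), whose size is uncertain because 2 of 5 control females were well above background. Pparg was higher in males by 1.40 and G0s2 by 0.97. The fatty acid transporter Cd36 was lower in males by a log2 difference of -3.07, Acsm5 by -1.79 and the carnitine transporter Slc22a5 by -1.43, the last well above background on 3 of 5 control males. Abcd2, a peroxisomal transporter, was not well above background in any control male and was at least 2.62-fold higher in females. Acacb was also above background on 3 of 5 control males. The others called were Crat, Acsl4, Acot4, Acsl5, Rxrg and Acacb, lower in males, and Acat1, Hadh, Cidec, Bdh1 and Ucp3, higher in males. The scanner's ratio brought Rxrg from -0.84 to 0.0052 and ended its call. Median centring moved the median of all probes between control sexes from 0.02 to -0.16, and the share of called probes higher in males from 44.4% to 17.4%.

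The 8 genes also varied together in part. Over 48 arrays with slide and sex means removed, Pearson's r was 0.86 between Ehhadh and Cyp4a1, 0.69 between Cyp4a1 and Acadm and 0.67 between Ehhadh and Acadm. Ppara and Cpt1a were at 0.61. Acot1 ran against the first 3, at -0.69 with Acadm, -0.61 with Ehhadh and -0.60 with Cyp4a1. The arrays share dose groups and the array's scale, so these values describe the data and carry no test.

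**Figure D4:**
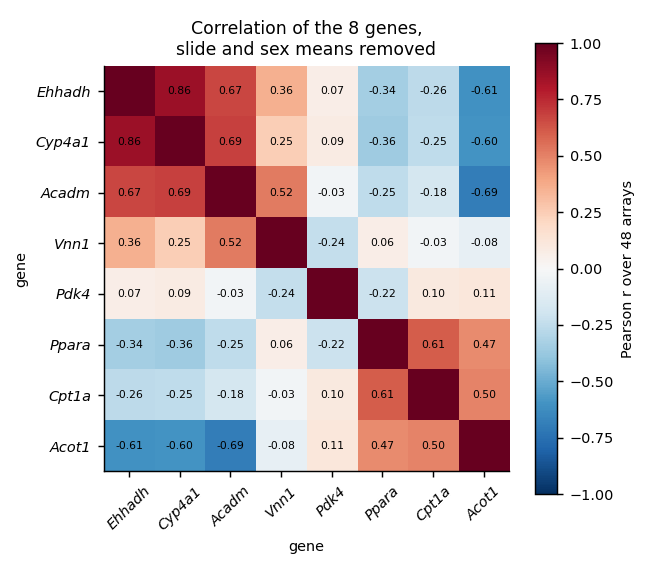
Pearson's r between the 8 genes (both axes) over 48 arrays after slide and sex means were removed, red for positive and blue for negative. Ehhadh, Cyp4a1 and Acadm form a red block (0.67 to 0.86), and Acot1 is blue against all 3 (-0.69 to -0.60).

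Among 9513 other genes, Ppara was most like Slc25a32 (r = 0.78), Por (0.71) and Il6r (0.69). Cpt1a was most like Pxmp4 (0.72), Riox1 and Coa4. Ehhadh and Cyp4a1 shared the same nearest gene, Dpys, at 0.85 and 0.84. Acot1 was nearest to Rab30 (0.78) and to its relative Acot3 (0.77). Acadm had the closest company, Crip2 at 0.89 and Cyp2d5 at 0.87, and Pdk4 the loosest, with Irf1 at 0.64. Vnn1 was nearest to Lgals8 (0.80).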

How the data were processed

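Liver RNA (Cy5) and reference RNA (Cy3) were read with Agilent Feature Extraction 10.7.3.1, per the submitters' processing notes, with no dye swaps. The deposited scanner files hold median spot and background intensity and a log10 ratio of liver over reference made by the software. The deposited series matrix holds log2 ratios normalised by the authors, and was used as an alternative. Signals were background corrected (normexp, offset 50) and normalised by loess within each array in limma 3.58.1 (R 4.3.3); spots of a probe were averaged without outlier spots. A probe was tested where 4 or more arrays of some group read it as well above background. Of 30367 probes, 18004 were named through RefSeq accessions (GRCr8 table, used for names). A gene is shown by its brightest probe.

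The limma fit on 48 arrays had 1 mean per sex and dose and slide as a fixed term. All tests are 2-sided, with Benjamini-Hochberg adjustment over all 17128 probes within a comparison, and each rat is 1 replicate. All 8 genes are named, with called genes of the pathway lists (at most 10 per direction), relatives and partners of the 8, and the 3 most correlated genes of each. The genes, lists, slide term and dim-array rule were chosen with earlier results of these data known. The bound for a gene below background used Aquantile-scaled channels and may carry dye bias. The precision is limited by the number of arrays. The steps were run on simulated data with normal noise and no floor for dim probes, which cannot show how dim probes behave. The alternatives changed the background correction, normalisation, filter, slide term, arrays and test. A gene of the pathway lists that counts include is not reported here.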

Additional observations from a re-analysis of the deposited data

Results flagged for a closer look

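Of 72 sets of 5 arrays (1 gene in 1 group), 5 held an array far from the other 4 by Dixon's test, where chance gives about 1 in 20. Cpt1a was highest in control female 11 (log2 ratio 2.87). Cyp4a1 (6.73) and Ehhadh (5.02) were both highest in female 90 at 2 mg/kg. Pdk4 was lowest in control female 4 (1.79), and Vnn1 was highest in control male 2 (0.75). These are values before slide adjustment.

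Of the 8 genes and the 90 pathway genes, 3 were called by limma's interaction of sex with 2 mg/kg, where 1.14% of all probes were called. None of the 3 calls was stable: removing 1 array at a time ended that of Acot1 in 12, Slc27a5 in 12 and G0s2 in 13 of 20 fits, and each was also lost in 9 or more of the other settings. Acot1 differed by 0.89 (adjusted p = 0.0424), higher in males. Its probe passed the filter only through the 2 mg/kg males and the control females, whose high values raise this difference. Slc27a5, of bile acid conjugation, differed by -0.67 (adjusted p = 0.0385) and G0s2, a lipase inhibitor, by -1.25 (adjusted p = 0.0473), both lower in males.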

How the results depend on the processing

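Over the single-gene results of the 8 genes, 3354 alternative values kept their call, and also their direction outside the F tests, where direction was not compared. Another 188 changed sign without being called in either fit, 20 gained a call and 103 lost one. Ppara, Acot1, Cyp4a1, Ehhadh and Acadm kept their direction at 2 mg/kg in males under every alternative run. In males at 2 mg/kg the count stayed at 2 or 3 in most settings, but not for the same genes: Cyp4a1 and Acadm were called without a slide term, Cpt1a and Acot1 with median centring, Ppara and Acot1 with male 26 put back, Ppara, Acot1 and Acadm in the liver channel alone, Acot1 and Acadm in the authors' table with no slide term, and Ppara and Cyp4a1 with a strict filter, under which Acot1 was not tested. Other counts of called genes changed as follows. Without a slide term, males at 0.12 and 0.5 mg/kg, their dose mean, their F test and the interaction at 2 mg/kg gave 0, control sexes 1 of the 8 and 11 pathway genes. With male 26 put back, 0.5 mg/kg and the interaction gave 0, the male F test 3, and the pathway 5 genes in males and 0 in females. With both changes, males at 0.12, 0.5 and 2 mg/kg, their mean, their F test and the interaction gave 0, control sexes 1 and 8 pathway genes, and the pathway at 2 mg/kg 2 in males and 1 in females. Median centring gave 0 at 0.12 and 0.5 mg/kg, over the mean and in the interaction, 3 by the male F test and 2 pathway genes in females. The scanner's ratio gave 0 at 0.5 mg/kg and in the interaction, and 2 pathway genes in females. The liver channel alone gave 0 at 0.5 mg/kg, over the mean and in the interaction, 3 by the F test and 2 pathway genes in females. The authors' table with no slide term, chosen after seeing the data, gave 0 at 0.12 and 0.5 mg/kg, over the mean and in the interaction, 1 by the F test and 1 between control sexes. No filter gave 0 at 0.5 mg/kg and in the interaction and 1 pathway gene in females, and a strict filter 0 in the interaction. Slide as a random block and no background correction gave 0 at 0.5 mg/kg, and array weights 0 at 0.12 mg/kg. A limma test against 1.5-fold (treat) gave 0 for every count but control sexes, with 0 of the 8 and 7 pathway genes. The cause was not tested. Rxrg between control sexes turned from -0.84 to 0.0052 with the scanner's ratio, and the interaction of Slc27a5 from -0.67 to 0.26 in the authors' table with no slide term.

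Leaving out 1 array at a time gave 0 to 2 genes in males at 0.12 mg/kg, 0 to 1 at 0.5, 3 to 5 at 2 mg/kg, 0 to 2 over the mean, 3 to 6 by the F test, 0 to 1 in the interaction and 2 to 3 between control sexes. The pathway gave 8 to 12 genes in males, 0 to 4 in females and 15 to 19 between control sexes. The count of 5 at 2 mg/kg came without male 86, which added Ehhadh and Acadm. No paired analysis was possible because equal numbers in males and females are different rats and dose groups within a sex share no numbers. The authors' table with a slide term was not run, since 39 of its columns matched another rat's array and slides could not be assigned. Dim probes limit the size of the Acot1 change, and 3 arrays limit the males at 0.03 mg/kg.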
